A study of Ovis aries with 18 samples.

Results

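The miR-200 family was followed in small RNA from uterine lumen extracellular vesicles and from the endometrium of ovariectomized ewes (Ovis aries). Its members were the rows named oar-miR-200a, oar-miR-200b and oar-miR-200c (the prefix marks the sheep), the predicted rows 3_27218 and 12_7044, and any row listed as miR-141 or miR-429. This rule was met by 5 of 495 rows in vesicles and by 5 of 761 rows in endometrium, and they were the same rows in both. A row listed as miR-141 or miR-429 was found in neither, a count of 0. The authors list 3_27218 with the seed of bovine miR-200a and 12_7044 with the seed of bovine miR-200c. A seed is the short 5' stretch by which a miRNA pairs with its targets, and a shared seed is not an identity. In mammals miR-141 has the seed of miR-200a, and miR-429 that of miR-200c. The listing by seed may thus place miR-141 or miR-429 under a different name. Their lack by name does not show that they were absent. Whether 3_27218 is miR-141 and 12_7044 is miR-429 was not tested.

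All ewes were ovariectomized and received 50 mg of progesterone (P4) per day for 14 days. The P4+RU486 ewes had P4 alone for 7 days, and from day 8 to day 14 also received 50 mg per day of RU486 (mifepristone), an antagonist of the progesterone receptor. The P4 ewes had no RU486. Vesicles came from 4 P4+RU486 and 4 P4 libraries, after a flush of 10 ml, a 0.22 µm filter and size exclusion, and endometrium from 5 and 5. Treatments were given to different ewes. The column headers of the vesicle values begin with R or P, and their numbers match no sample title and do not identify the animal. R was read as P4+RU486 and P as P4 from this letter alone, and every treatment comparison in vesicles rests on that reading. The libraries are called R01 to R04 (P4+RU486) and P01 to P04 (P4). A vesicle preparation can hold the output of several cell types, so more vesicles from a cell type and more miRNA per vesicle cannot be told apart.

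The miR-200 family is a set of small RNAs abundant in epithelial cells. Its members repress ZEB1 and ZEB2, transcription factors that switch off E-cadherin, and the ZEB factors in turn repress the family, so that the loop holds cells in an epithelial or a mesenchymal state. In mammals the genes lie in a pair of clusters, miR-200b with miR-200a and miR-429, and miR-200c with miR-141. The family also falls into a pair of seed groups that cut across these clusters: miR-200a and miR-141 share a seed, and miR-200b, miR-200c and miR-429 share another that differs from it by a single base. In the muscle of the mouse and human uterus, ZEB1 is known as a progesterone-dependent brake on the family. In RefSeq's annotation of the sheep assembly ARS-UI_Ramb_v3.0, which is not the build of the files, MIR200A and MIR200B are direct neighbours between TTLL10 and C12H1orf159. MIR200C lies apart from them, next to PTPN6, a gene for a tyrosine phosphatase.

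Vesicle values are normalized CPM, that is, CPM after the authors' adjustment of each library's size. The reads behind them could be recovered: 97202 to 1062646 per library in listed rows, with P03 the deepest and P01 the shallowest. The family rows had between 102 and 10547 reads in a library, so none was near the floor of 3 reads that a count of 0 allows. The exact 95% Poisson intervals and the Wilson intervals given here cover counting error only, and PCR copies were counted as separate reads because no molecular identifiers were used. Between libraries of a treatment, the SD on the log2 scale was 3.12 times (12_7044) to 14.9 times (miR-200c) what counting alone gives. The spread between libraries was thus wider than the counting error in all 5 rows. What part of it came from the ewes and what part from the preparation was not tested.

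The first seed group holds miR-200a and 3_27218. miR-200a was at 2540, 4095, 2821 and 2735 normalized CPM in R01 to R04 (P4+RU486), against 2153, 2789, 3451 and 3282 in P01 to P04 (P4). The treatments overlapped, with R02 the highest and P01 the lowest. As a share of reads R02 stayed the highest, but R01 was the lowest, at 0.241%, with P01 at 0.282%. The means were 3048 ± 708 (SD, n = 4) in P4+RU486 and 2919 ± 583 (SD, n = 4) in P4. On the log2(value + 1) scale the P4+RU486 minus P4 difference was 0.06 (SE 0.26, 95% interval -0.50 to 0.62, limma adjusted p = 0.933), and it turned to -0.03 under library totals. miR-200a spanned 1.90-fold from its lowest to its highest library. In normalized CPM P01 was the lowest library for all 5 family rows, and for 32.8% of all tested rows. As shares of reads it was the lowest for 2 of the 5, and for 16.6% of all tested rows. The adjusted library size of P01 was 1.31 times its reads in listed rows, against 0.856 to 1.07 times in the other libraries.

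The row 3_27218, with the same seed, was at 2238, 4524, 2008 and 2433 normalized CPM in R01 to R04 (P4+RU486), against 1312, 2303, 2536 and 1851 in P01 to P04 (P4). A single library, R02, stood above all others, and the remaining values of both treatments overlapped. The means were 2801 ± 1162 (SD, n = 4) in P4+RU486 and 2000 ± 540 (SD, n = 4) in P4, a log2 difference of 0.45 (SE 0.32, 95% interval -0.24 to 1.14, limma adjusted p = 0.569). Without R02 the P4+RU486 mean was 2226 ± 212 (SD, n = 3) and the log2 difference 0.19 (SE 0.30). Its log2 difference was the only one of the 5 that kept 1 sign in all 20 alternative settings.

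The second seed group holds miR-200b, miR-200c and 12_7044. miR-200b was at 3795, 3050, 2917 and 2339 normalized CPM in R01 to R04 (P4+RU486), against 1862, 3937, 11590 and 3034 in P01 to P04 (P4). The P4 libraries held both the highest and the lowest value of the 8, and P03 was 2.94 times as high as the next. The low end depended on the scaling: as a share of reads R04 was the lowest, at 0.221%, with P01 at 0.244%. The means were 3025 ± 599 (SD, n = 4) in P4+RU486 and 5106 ± 4406 (SD, n = 4) in P4, with a log2 difference of -0.43 (SE 0.45, 95% interval -1.42 to 0.56, limma adjusted p = 0.774). Without P03 the P4 mean was 2944 ± 1040 (SD, n = 3) and the log2 difference 0.08 (SE 0.30).

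miR-200c, from the other cluster, was at 4330, 2752, 3409 and 1911 normalized CPM in R01 to R04 (P4+RU486), against 888, 3855, 11166 and 1307 in P01 to P04 (P4). Again all P4+RU486 libraries lay within the range of the P4 libraries, and P03 was the highest of all. The P4 libraries spanned 12.6-fold and the P4+RU486 libraries 2.27-fold; a difference in spread was not tested. The means were 3101 ± 1024 (SD, n = 4) in P4+RU486 and 4304 ± 4759 (SD, n = 4) in P4, a ratio of 0.720, while the log2 difference was 0.16 (SE 0.64, 95% interval -1.24 to 1.56, limma adjusted p = 0.931). The mean and the log2 fit therefore had opposite signs, and without P03 the log2 difference was 0.85 (SE 0.47).

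The row 12_7044, with the miR-200c seed, was the least abundant and had the narrowest span. It was at 1509, 1578, 1329 and 1065 normalized CPM in R01 to R04 (P4+RU486), against 904, 1503, 1486 and 1326 in P01 to P04 (P4). The treatments overlapped over nearly their whole range, and P03 did not stand out. The means were 1370 ± 229 (SD, n = 4) in P4+RU486 and 1305 ± 279 (SD, n = 4) in P4, a log2 difference of 0.08 (SE 0.27, 95% interval -0.50 to 0.67, limma adjusted p = 0.913). Its highest library was 1.75 times its lowest.

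**Figure D1:**
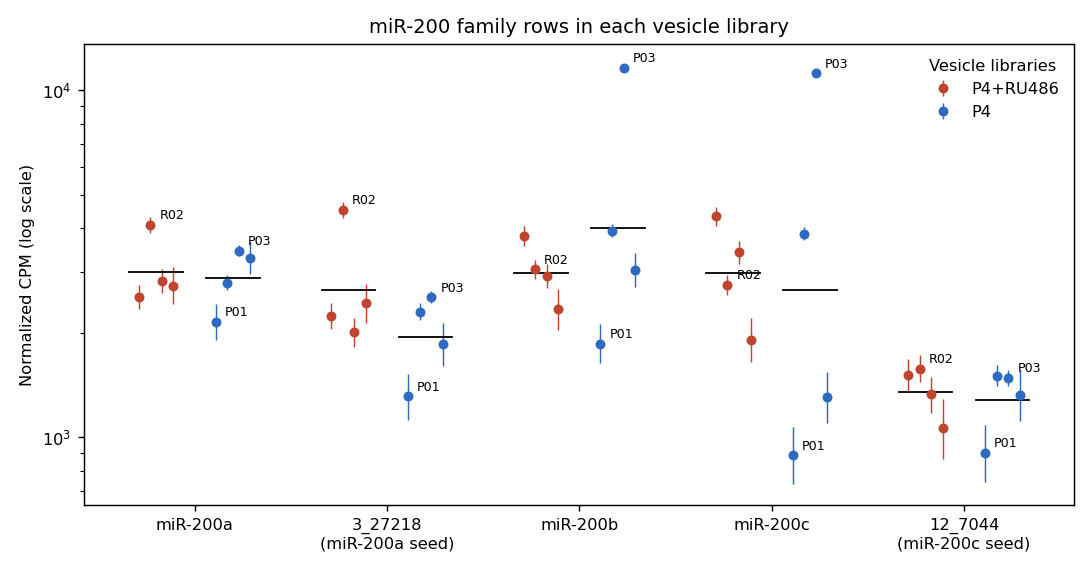
Normalized CPM (log scale) of the 5 miR-200 family rows in each vesicle library, P4+RU486 left of P4 for each row; points are libraries in the order 01 to 04, bars the exact 95% Poisson interval of the reads and black lines geometric means. P03 reaches 11590 for miR-200b and 11166 for miR-200c, and 1486 for 12_7044.

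None of the 5 rows passed the limma test between treatments, where 0.437% of the 229 tested rows passed an adjusted p of 0.05. Among the 5, 0 had an unadjusted p under 0.05 (14.4% of all tested rows did), and 0 passed with edgeR or with DESeq2 on the recovered reads. Libraries of the treatments did not overlap in 0 of the 5 rows, against 10.0% of all tested rows. The median log2 difference was 0.08 over the 5 rows and 0.04 over all tested rows. The sign was positive in 4 of 5 rows with the deposited scaling, in 4 under median-of-ratios factors and in 2 under library totals. A p that misses the threshold does not show that the treatments act alike: the intervals of miR-200b, miR-200c and 3_27218 reached log2 differences beyond 1 in size, while those of miR-200a and 12_7044 stayed within 0.67.

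**Figure D2:**
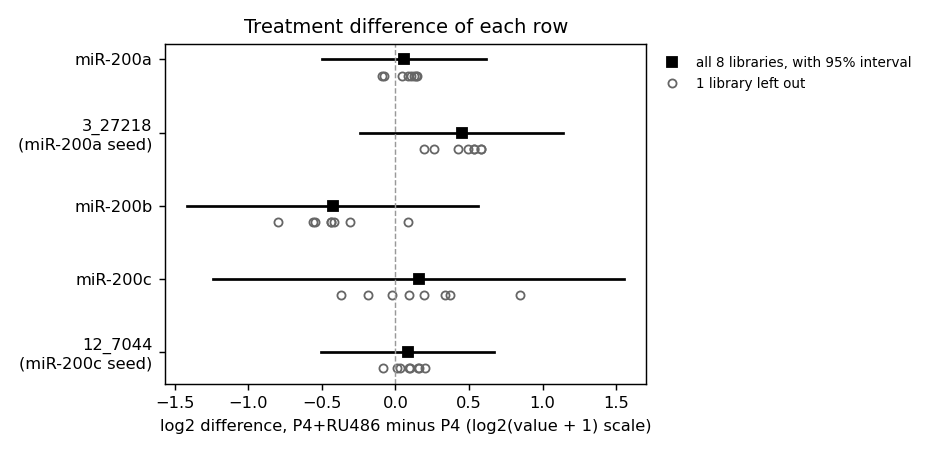
The log2 difference of each family row between P4+RU486 and P4 vesicles (squares, lines the 95% interval of the limma fit) and the same with 1 library left out (open circles). All 5 intervals cross 0, and for miR-200c the values with 1 library left out run from -0.37 to 0.85.

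The levels of the 5 rows lay close together, with 12_7044 the lowest by geometric mean. Each read is a whole small RNA, so levels were compared without division by length, and a bias of adapter ligation between sequences was not tested. By geometric mean over the 8 vesicle libraries the order was miR-200b (3456 normalized CPM), miR-200a (2932), miR-200c (2809), 3_27218 (2269) and 12_7044 (1317). All 10 pairs were compared within libraries (exact sign-flip permutation test, two-sided, adjusted over the 10 pairs). Each of the first 3 neighbouring pairs had the row named first higher in 4 of 8 libraries, and these pairs did not differ beyond their spread (adjusted exact p = 0.503, 0.883 and 0.503). The row 3_27218 was above 12_7044 in 8 of 8 libraries, by a mean of 0.78 on the log2 scale (exact permutation p = 0.00781, the smallest that 8 libraries can give, adjusted 0.0260). miR-200a and miR-200b were above 12_7044 in 8 of 8 libraries too, with the same p-values. miR-200a was above 3_27218, which shares its seed, in 7 of 8 libraries, by 0.37 on the log2 scale (exact permutation adjusted p = 0.0391). miR-200c was above 12_7044 in 6 of 8 libraries, which did not pass (exact permutation adjusted p = 0.0625), and the other 2 pairs, miR-200b with miR-200c and with 3_27218, did not pass either (0.290 and 0.104). By mean value they ranked 34 (miR-200b), 38 (miR-200c), 43 (miR-200a), 47 (3_27218) and 59 (12_7044) among the 495 rows. The best rank in a single library was 20, for miR-200b in P03.

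Library P03 was where the family departed most from its usual make-up, and it did so in miR-200b and miR-200c alone among the 5 rows. P03 was set against the median of the other 7 libraries for each of the 229 tested rows. miR-200c was 4.06-fold and miR-200b 3.82-fold above that median, at ranks 2 and 3 of all rows. The highest, 18_13681 with the miR-204 seed, had 23 reads in P03, where miR-200c had 10161 and miR-200b 10547. miR-200a was at 1.24-fold, 3_27218 at 1.13-fold and 12_7044 at 1.12-fold, with ranks of 96, 118 and 122, close to the middle of all rows. Of all tested rows, 9.17% were at least 2-fold above the median of the other libraries in P03. Both rows were highest in P03 on the scale of shares of reads too.

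**Figure D3:**
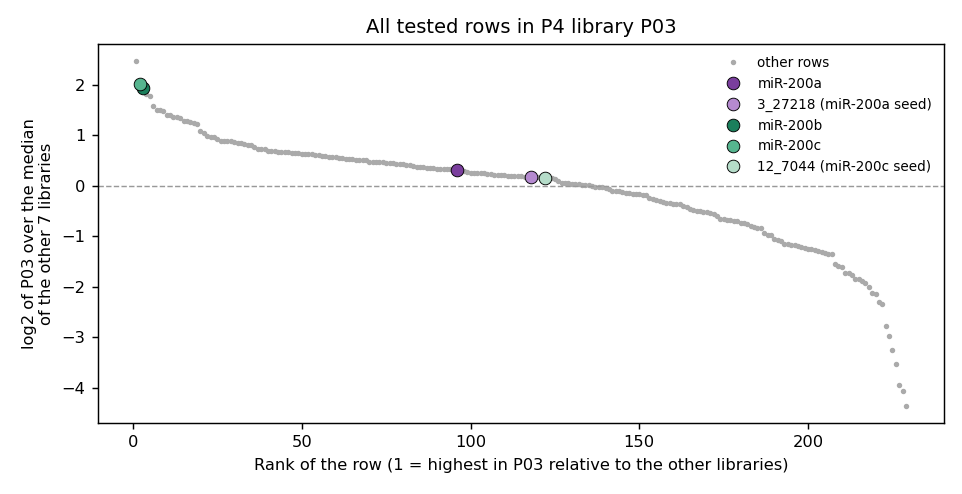
The log2 ratio of the P4 library P03 to the median of the other 7 vesicle libraries for all 229 tested rows, ranked from high to low. miR-200c (rank 2) and miR-200b (rank 3) lie at the top left, and the other 3 family rows near the middle.

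Other features of P03 were as follows. It was the deepest library, with 1062646 reads in listed rows. Its share of leukocyte rows was 0.215% of reads (4 rows, with 0 rows for miR-223), the lowest of the 8 libraries, with 0.216% to 0.495% in P4+RU486 and 0.215% to 1.94% in P4. Smooth muscle and stromal rows (4, all of miR-143, miR-145, miR-199 and miR-214 having a row) held 1.42% in P03, inside the ranges of both treatments, with 1.05% to 1.47% in P4+RU486 and 1.08% to 1.84% in P4. The erythroid row (miR-486 seed, with 0 rows for miR-451 and miR-144) held 0.0311% in P03, with 0.175% to 0.553% in P4+RU486 and 0.0262% to 0.791% in P4. Other epithelial rows (12) held 1.81% in P03, the lowest of the 8 libraries, with 1.86% to 2.46% in P4+RU486 and 1.81% to 2.17% in P4. The 4 most abundant of them did not move together. In normalized CPM, 15_10275 (miR-34c-3p seed) was at a log2 of -1.06 in P03 against the median of the other 7 libraries. 15_10278 and 16_11384, both with the miR-34b seed, were at 0.34 and 0.90, and 12_7241 (miR-205 seed) at 0.02. Rows linked to the mesenchymal state (7, listed further on) held 2.07% in P03, also the lowest of the 8, with 2.13% to 2.73% in P4+RU486 and 2.07% to 3.60% in P4. The part of depth and of these cell types in the P03 values was not tested.

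Ratios of members were also compared within libraries. The ratio of miR-200b to miR-200a, neighbours in the genome with different seeds, was 1.49, 0.745, 1.03 and 0.855 in R01 to R04 (P4+RU486), against 0.865, 1.41, 3.36 and 0.924 in P01 to P04 (P4). The ratio thus lay between 0.745 and 1.03 in 5 libraries, with miR-200b ahead in R01 and P02, and far ahead in P03. The ratio of 12_7044 to miR-200a was 0.594, 0.385, 0.471 and 0.389 in P4+RU486, against 0.420, 0.539, 0.431 and 0.404 in P4. That is a 1.54-fold span over 8 libraries, the narrowest of the 6 ratios computed, and P03 lay inside it. Both rows varied little, by 1.75-fold for 12_7044 and 1.90-fold for miR-200a, so a narrow ratio does not show that they moved together. Their Pearson r of log2(value + 1) was 0.68, and 0.12 without R02 and P01. The ratio of 12_7044 to miR-200b was 0.128 in P03 and between 0.382 and 0.517 in all other libraries.

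The ratio of miR-200c to miR-200b, which share a seed but not a cluster, was 1.14, 0.902, 1.17 and 0.817 in R01 to R04 (P4+RU486), against 0.477, 0.979, 0.963 and 0.431 in P01 to P04 (P4). P03 lay with most libraries here, since both rows were high in it. P01 and P04 stood apart with low miR-200c. In them miR-200c made up 12.5% (Wilson 95% interval 10.5 to 14.8) and 12.1% (10.3 to 14.1) of the family's reads, and in every other library at least 17.2%. P01 and P04 were also the shallowest libraries, with 113 and 137 reads of miR-200c. R04, of similar depth, had a ratio of 0.817, the lowest in P4+RU486. The part of depth in these ratios was not tested. The ratio of 3_27218 to miR-200a was 0.881, 1.10, 0.712 and 0.889 in P4+RU486, against 0.609, 0.826, 0.735 and 0.564 in P4. The treatments overlapped in this ratio too, with R02 the only library above 1.

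**Figure D4:**
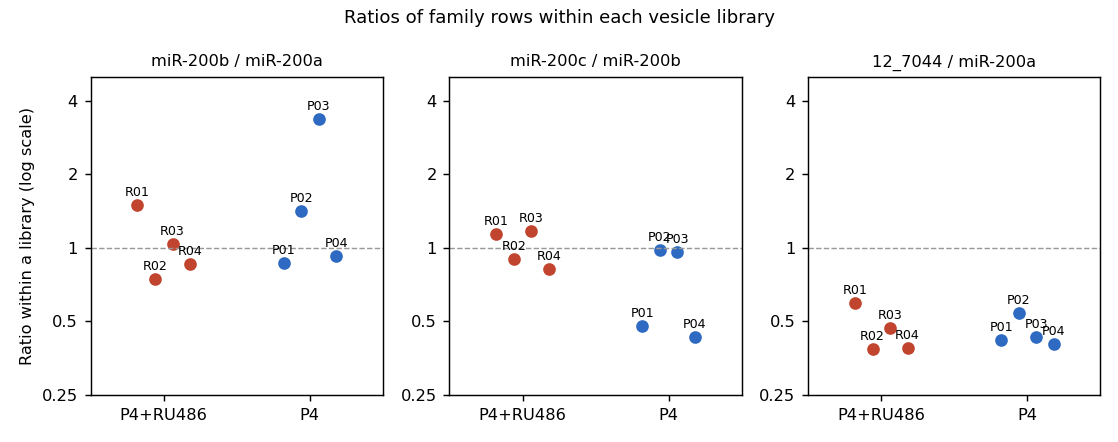
Ratios of family rows within each vesicle library (log scale), P4+RU486 left of P4. miR-200b over miR-200a reaches 3.36 in P03, miR-200c over miR-200b drops to 0.477 in P01 and 0.431 in P04, and 12_7044 over miR-200a stays between 0.385 and 0.594.

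Summed over the 5 rows, the family took 1.37%, 1.56%, 1.27% and 0.992% of the reads in R01 to R04 (P4+RU486), against 0.932%, 1.34%, 2.59% and 1.16% in P01 to P04 (P4). The counting intervals were narrow, 2.56 to 2.62% in P03 and 0.874 to 0.994% in P01 (Wilson), and the spread between libraries was much wider. All P4+RU486 shares lay within the P4 range. Without P03 the P4 share averaged 1.15% ± 0.206 (SD, n = 3), and the P4+RU486 minus P4 difference was 0.15 percentage points, where with all libraries it was -0.21.

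The split between the seed groups varied between libraries of the same treatment. The miR-200b and miR-200c seed group held 66.8%, 46.1%, 61.3% and 50.7% of the family's reads in R01 to R04 (P4+RU486), against 51.3%, 64.6%, 80.2% and 52.5% in P01 to P04 (P4). The low end was R02, at 46.1% (Wilson 44.8 to 47.5), where 3_27218 alone made up 28.3% of the family. The high end was P03, at 80.2% (Wilson 79.7 to 80.7). The means were 56.2% ± 9.51 (SD, n = 4) in P4+RU486 and 62.1% ± 13.4 (SD, n = 4) in P4, which differed by less than either SD.

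**Figure D5:**
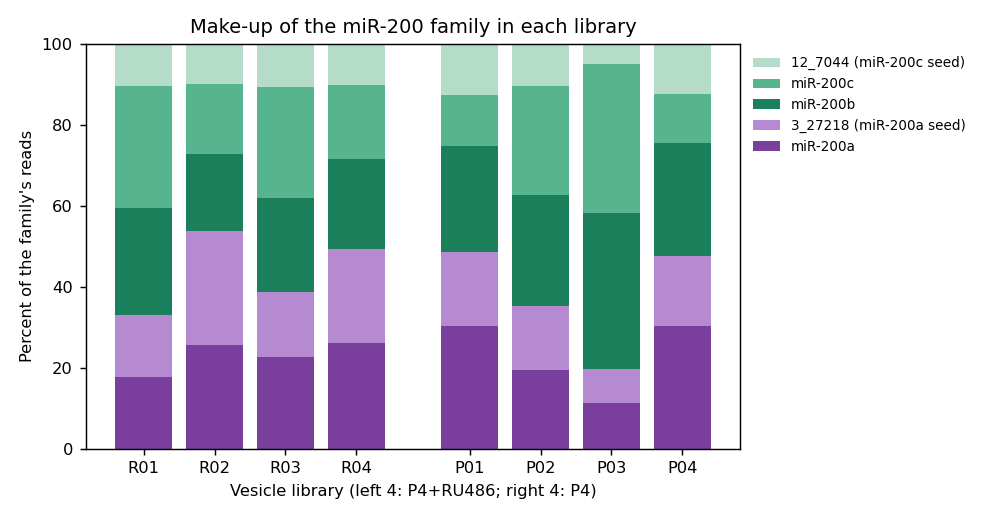
The share of each row in the miR-200 family's reads, in percent, for every vesicle library (left 4 P4+RU486, right 4 P4); purple marks the miR-200a seed group and green the miR-200b and miR-200c seed group. Green covers 80.2% of P03 and 46.1% of R02.

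The rows whose levels followed miR-200b most closely over the 8 vesicle libraries were miR-23a, 9_34222 with the miR-151-5p seed, and miR-23b. Their Pearson r of log2(value + 1) was 0.95, 0.94 and 0.93, the highest of 224 rows outside the family (Spearman rho 0.74, 0.93 and 0.79). All 3 were highest in P03. Without P03 and P01, the libraries farthest from the median of miR-200b, r was 0.51, 0.85 and 0.67 over 6 libraries, the largest drop being that of miR-23a. Within the family, r with miR-200b was 0.90 for miR-200c, 0.62 for 12_7044, 0.46 for miR-200a and 0.31 for 3_27218. Over the 6 libraries without P03 and P01 these were 0.64, 0.82, -0.17 and -0.08, so the order within the family depended on those libraries. The rows outside the family most like miR-200a were X_35612 with the miR-452-5p seed, 21_20031 with the miR-215 seed, and miR-194, with r of 0.86, 0.84 and 0.81. Without R02 and P01 their r was 0.42, 0.37 and 0.70. The family row 3_27218 had an r of 0.82 with miR-200a, and of -0.06 without R02 and P01. These are descriptions of 8 libraries that share scaling and depth, ranked by r itself, with no test.

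Other miRNAs tied to the epithelial state gave no call in vesicles. Of 12 rows with the numbers of miR-203, miR-205, miR-375, miR-183, miR-96, miR-182, miR-34 or miR-449, 8 were tested and 0 passed the limma test. An unadjusted p under 0.05 was found in 1 of the 8, where 14.4% of all tested rows had one. That row, X_36488 with the miR-96 seed, named after its values were seen, was lower in P4+RU486 by a log2 difference of -1.68 (limma adjusted p = 0.141). The other tested row with this seed, 5_29334, went the other way, at 0.54. Of the 8 tested epithelial rows 6 were higher in P4+RU486, against 51.5% of all tested rows. For miR-203, miR-182 and miR-449 there was no row, though the listing by seed may place one under a different name. The row 12_7241, with the seed of miR-205, an epithelial miRNA that also represses ZEB factors, averaged 5297 ± 592 normalized CPM (SD, n = 4) in P4+RU486 and 4377 ± 1892 (SD, n = 4) in P4. Its log2 difference was 0.40 (SE 0.34, limma adjusted p = 0.704). Of the rows linked to the mesenchymal state (miR-10b, miR-21, miR-155, miR-221, miR-222 and miR-9 numbers), 7 were tested and 0 passed, 4 having an unadjusted p under 0.05, against 14.4% of all tested rows. Of these 4, the rows 1_2685 and 5_30487 with the miR-9-5p seed, named after their values were seen, are identical in every library and may hold 1 signal. They had a log2 difference of 1.39 each, whereas X_36142 with the miR-221 seed and miR-221 went the other way, at -0.72 and -0.62. The median log2 difference was 0.36 over the 8 epithelial rows, among which a pair with the miR-183 seed is identical and so counts double, and 0.10 over the 7 others.

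The remaining marker lists were tested in the same fit. Of the smooth muscle and stromal rows 3 were tested and 0 passed (median log2 difference -0.08). An unadjusted p under 0.05 was found in 1 of them, 5_29566 with the miR-145 seed (log2 difference -1.43). The 4 leukocyte rows (median -0.30) and the erythroid row (1.18) had 0 called rows as well. The leukocyte rows went both ways: 11_5329 with the miR-142b seed was at 2.28, the only one of them with an unadjusted p under 0.05, and miR-150 at -1.11. The row 11_5329 was near the floor, with means of 55.5 normalized CPM in P4+RU486 and 19.7 in P4, where its lowest value was 0. In P04 the floor of 3 reads stood at 28.6 normalized CPM. The erythroid row had no unadjusted p under 0.05, and the share over all tested rows was 14.4%.

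In the authors' deposited table for vesicles, 1.82% of rows had an adjusted p under 0.05 and 0 of the 5 family rows did. Positive folds there mark rows with more signal in P4: among rows with a fold of at least 2 in size, 192 of 197 had means in that order, and among the 298 with smaller folds, as in all 5 family rows, 252 did. miR-200c was one of those that did not, its mean being lower in P4+RU486. The authors' deposited table gives signed folds of 1.17 for miR-200b, -1.20 for miR-200c, -1.30 for 3_27218, -1.04 for miR-200a and -1.05 for 12_7044, with adjusted p-values of 0.99 to 1. The direction was that of the limma fit for all 5 rows.

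In the endometrium, the authors' deposited table had 1.18% of its 761 rows under an adjusted p of 0.05, and again 0 of the 5 family rows. Which treatment stands on top of these folds is not stated, and their sign gives no direction. The authors' deposited table gives 1.08 for miR-200a (adjusted p = 0.985), 1.07 for miR-200b (0.985) and -1.04 for miR-200c (0.989). For 3_27218 the authors' deposited table gives -1.01 (adjusted p = 0.992) and for 12_7044 a fold of 1.18 (adjusted p = 0.851). The last was the largest of the 5 in size. Among all rows of the authors' deposited table, 59.5% had a fold at least as large. None of the 5 exceeded the median size of all rows in the authors' deposited table, 1.25. The endometrium columns of values per library were not used, so no test was run on tissue libraries and vesicle and tissue levels were not compared.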

How the data were processed

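Per the labels' protocols, TruSeq small RNA libraries came from 8 vesicle and 10 endometrium samples. The submitters' processing notes name edgeR without a version, cutadapt 1.11 and the build Oar_v3.1; aligner and miRNA predictor: not given in the sources used here. In vesicles the deposited signal is CPM of an adjusted library size. In each column 100% of values equalled a whole number of reads (tolerance 0.1 read), and TMM factors of these reads matched the deposited scaling within 3e-06. The authors' signed fold, a score under the unit names used here, and the authors' adjusted p-value are copied per the file headers. The 10 endometrium columns of values match no label and were not used.

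The main test was limma 3.58.1 with trend (R 4.3.3) on log2(value + 1). It covered the 229 rows whose mean reached 10 (99.9% of reads), with Benjamini-Hochberg adjustment over these rows and a threshold of 0.05. It can understate changes of low rows. All 5 members passed the filter. The design named this test for normalized values. edgeR 4.0.16 on recovered reads (1 row called) and DESeq2 1.42.0 (4 rows) were alternatives. The pipeline was tested on simulated data with changes planted in 50 rows. These changes were larger than any log2 difference fitted to the family rows. That run therefore cannot tell whether differences of the family's size would be called. Pairs of family rows were compared within libraries by an exact sign-flip permutation test, with its adjustment from scipy 1.17.1. Members and lists were chosen with earlier results of these data known. Named rows were all members, the 3 rows most correlated with miR-200b and with miR-200a, and at most 4 rows per list, the most abundant. 18_13681 was named after its values were seen, as were libraries P01, P03 and R02 for closer description.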

Additional observations from a re-analysis of the deposited data

Results flagged for a closer look

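The row 3_27218 in the P4+RU486 library R02, at 4524 normalized CPM, lay far from the other P4+RU486 libraries (2008 to 2433). Its gap to the next was 0.831 of the group's range, just above the 95% critical value of Dixon's test for 4 samples. On the log2 scale the gap was 0.76 of the range, below that value. This was 1 library flagged in 24 groups looked at, and chance flags about 1 in 20 groups. In P03 the gaps were 0.787 for miR-200b and 0.711 for miR-200c, below the critical value.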

How the results depend on the processing

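The count of family rows past the threshold was 0 in all 20 alternatives, with adjusted p-values from 0.265 (3_27218) to 0.9995 (12_7044). No paired analysis was possible because the treatments were given to different ewes and the vesicle columns carry no ewe number. The sign of miR-200a turned under library totals (-0.025), without the 3 libraries of fewest reads (-0.0083) and without P01 and P03 (-0.015), the last chosen after seeing the data. That of 12_7044 turned under the same settings (-0.0016, -0.025 and -0.059). That of miR-200c turned with edgeR (-0.48), DESeq2 (-0.37) and without the 3 libraries of fewest reads (-0.93), where miR-200b was at -1.06. Those 3 libraries were P01, P04 and R04. P4 was then left with P02 and P03 only, so P03 weighed more in that setting. Against -0.43, miR-200b was at -0.76 in edgeR, -0.69 in DESeq2 and -0.19 once depth entered the model. Depth in the model also put miR-200c at 0.53, miR-200a at 0.11 and 12_7044 at 0.16. Library totals put miR-200c at 0.074, and 3_27218 was at 0.18 without the 3 libraries of fewest reads. With 1 library left out, log2 differences ran from -0.091 to 0.15 for miR-200a (below 0 without P01 or R02), from -0.80 to 0.084 for miR-200b (above 0 without P03), from -0.37 to 0.85 for miR-200c (below 0 without P01, P04 or R01), from 0.19 to 0.58 for 3_27218 and from -0.084 to 0.20 for 12_7044 (below 0 without P01). The difference in summed share ran from -0.40 (without P01) to 0.15 (without P03) percentage points with 1 library left out, was -0.57 without the 3 libraries of fewest reads and 0.04 without P01 and P03. The share is on library totals by construction. The causes were not tested. Over all rows, calls numbered 1 in the main test, 4 with DESeq2, 6 with depth as a covariate, 2 without P02 and 0 without P04, R01, R03 or R04 or without P01 and P03. The lowest member count was 102 reads, and in each family row counting error was smaller than the spread between libraries.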
